A study of Sus scrofa with 15 samples.

Results

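The genes described here encode ligands, receptors and antagonists of the interleukin-1 (IL-1) and interleukin-18 (IL-18) system in piglet liver. They were chosen by name: IL1A, IL18 and IL33 among the ligands, IL1R1, IL1R2, IL1RAP, IL1RL1 and IL18R1 among the receptors, and the antagonists IL1RN and IL18BP. Of the 10 genes, 8 were found by pig gene symbol in a table of 31908 genes, of which 15029 carried a symbol. IL1RN and IL18BP were not found by symbol and were not analysed here, so neither soluble antagonist has a value.

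The liver came from male Duroc x Large White x Landrace piglets in the growing stage. The LPS group had received an intraperitoneal injection of lipopolysaccharide (LPS, the outer membrane component of Gram-negative bacteria) at 80 µg/kg, the CON group had received sterile saline, and the liver was taken 4 h later. The libraries compared were the input libraries of an m6A immunoprecipitation experiment, that is, polyadenylated and fragmented liver RNA set aside before the antibody step, with 3 libraries per group. The labels give neither the age of the piglets nor whether each library was made from 1 animal or from several, so p-values measure the spread between these libraries.

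IL-1 alpha binds the receptor IL1R1, which then recruits the accessory chain IL1RAP. The adaptor MYD88 and the IRAK kinases join this complex and activate NF-κB. IL1R2 binds the same ligands but lacks a signaling domain, so it acts as a decoy. IL-18 signals through IL18R1 and IL18RAP, and IL-33, a nuclear alarmin of barrier and endothelial cells, signals through IL1RL1 and IL1RAP. In liver, hepatocytes answer IL-1 with acute phase proteins, and the decoy IL1R2 is best known from neutrophils and monocytes.

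The CON libraries held 5927348 to 10351491 counts and the LPS libraries 4348478 to 19967417. The hepatocyte markers all had counts, given as CPM (each library's counts over its total, rescaled by the TMM method of edgeR). Their summed level, chiefly of ALB and APOA1, was 47503 to 60440 CPM in CON and 30552 to 56734 CPM in LPS. SERPINA1 of that list had only 1.23 to 7.2 CPM. LPS library 2 stood nearest to the CON libraries: its log2 CPM correlated with theirs across genes at 0.923 to 0.945, and with the other LPS libraries at 0.852 and 0.907. Calls that differ without it are given beside each group of genes. Since it was picked out by its likeness to CON, leaving it out favors larger differences. Over the whole table the calls then went from 7 to 982 genes. Calls made without it are therefore no separate support for a difference. In bulk liver, fewer cells of a type and less RNA per cell cannot be told apart.

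The decoy receptor IL1R2 had the widest difference between the groups among the 5 tested genes, and its level was higher in every LPS library than in any CON library. IL1R1, IL1RAP, IL18 and IL33 overlapped between the groups. IL1A was near 0 except in LPS library 3, IL1RL1 was near 0 throughout, and IL18R1 had no read in any library. None of the 5 genes with enough counts to test was called by edgeR's quasi-likelihood test, where a call needed both a p under 0.05 after Benjamini-Hochberg adjustment and more than a 1.5-fold difference. Of all 12774 tested genes 0.0548% were called higher, 7 genes, so few genes of any kind passed. At an unadjusted p below 0.05, 1 of the 5 was higher and none lower, against 6.18% and 6.33% of all tested genes. DESeq2 called 1 of them higher, against 1.89% of the genes it tested.

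**Figure D1:**
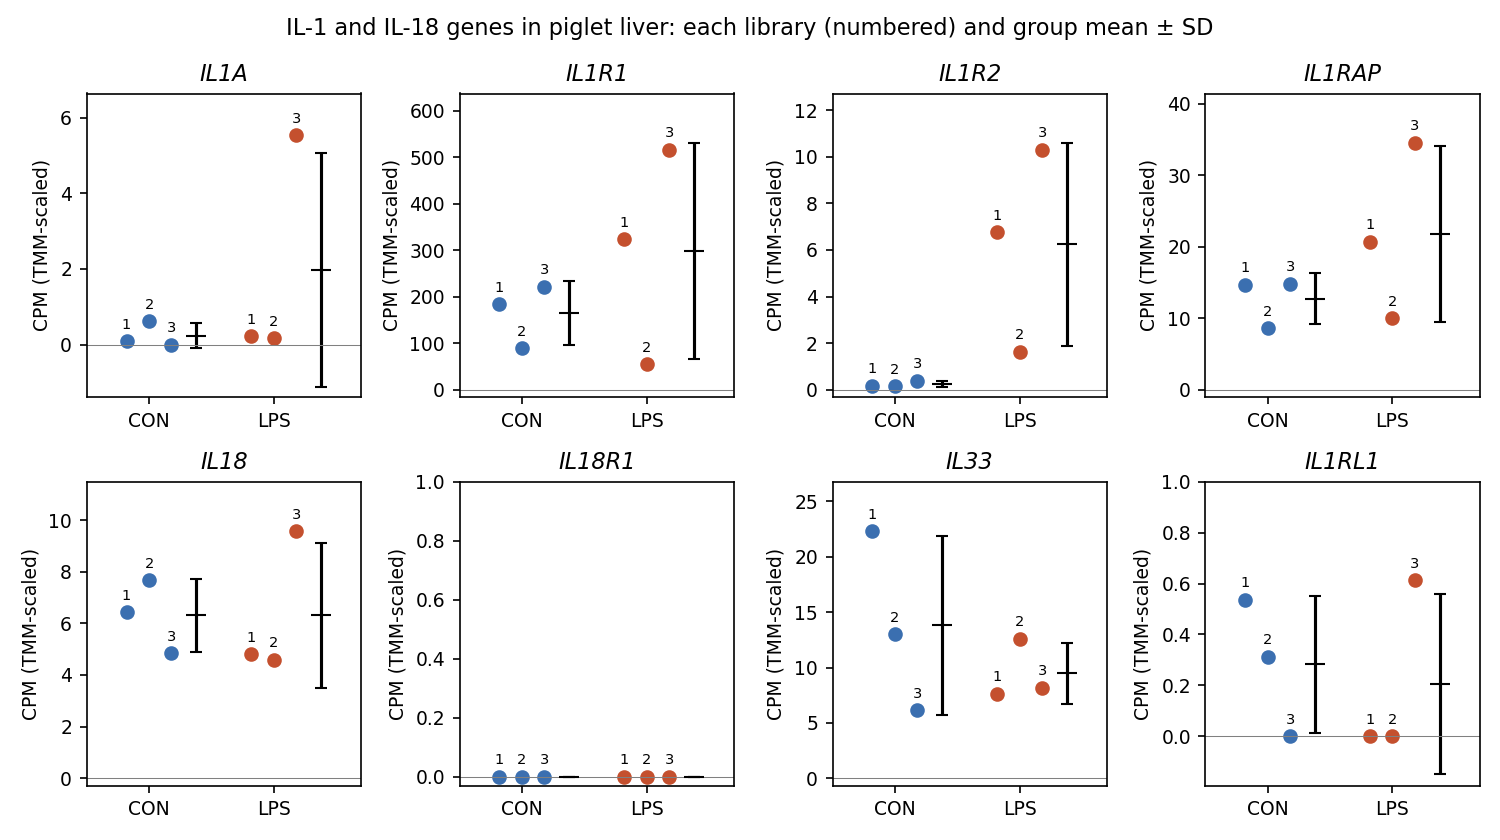
Level of the 8 genes in each of the 6 libraries, as TMM-scaled CPM on separate linear axes, with the library number above each point and the group mean ± SD beside it. IL1R2 is the only gene of the 8 whose LPS values all lie above its CON values, and the point of LPS library 3 is the highest of IL1A, IL1R1, IL1R2, IL1RAP, IL18 and IL1RL1.

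Among the ligands, IL1A (ENSSSCG00000008090, chromosome 3, 43718368 to 43731119, plus strand) encodes IL-1 alpha, which is held in cells as an active precursor and released on injury. It had 1, 4 and 0 counts in CON libraries 1 to 3, and 1, 1 and 81 counts in LPS libraries 1 to 3. The LPS library 3 value, with an exact Poisson interval of 64.3 to 101 counts at 95%, was far outside counting error from the others, while the other 2 LPS libraries lay within the CON range. That library was also the most deeply sequenced, but its scaled level of 5.53 CPM exceeded the highest of the other 5, 0.625 CPM. IL1A did not pass the filter on low counts. Without the filter, where 2.28% of genes were called higher, it was called at a log2 fold change of 3.34 (SE 0.87, edgeR adjusted p = 0.00657), a value that rests on LPS library 3 alone, and DESeq2 gave an adjusted p of 0.23.

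IL18 (ENSSSCG00000015037, chromosome 9, 39834966 to 39873300, minus strand) encodes a precursor that caspase-1 cleaves into the active cytokine. Its level was 6.43, 7.66 and 4.84 CPM in CON libraries 1 to 3. In LPS libraries 1 to 3 it was 4.80, 4.58 and 9.56 CPM. The LPS values lay on both sides of the CON values, and the group means were equal at 6.31 ± 1.41 and 6.31 ± 2.81 CPM (SD, n = 3 each). The log2 difference was 0.03 (SE 0.42, edgeR adjusted p = 0.988). Its sign depended on the scaling, since division by total counts gave -0.20, and on LPS library 3, without which it was -0.41.

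IL33 (ENSSSCG00000005203, chromosome 1, 215899435 to 215941840, minus strand) had the highest level per kb of the 3 ligands. It measured 22.3, 13 and 6.13 CPM in CON libraries 1 to 3. The LPS libraries measured 7.63, 12.6 and 8.19 CPM. The CON libraries alone spanned the whole LPS range. The log2 difference was -0.54 (SE 0.48, edgeR adjusted p = 0.678), and without CON library 1 it was -0.01.

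IL1R1 (ENSSSCG00000008162, chromosome 3, 52192914 to 52288515, minus strand), the signaling receptor of IL-1, was by far the most abundant gene of the set. Its level was 184, 89.4 and 222 CPM in CON libraries 1 to 3, and 324, 55.3 and 516 CPM in LPS libraries 1 to 3. The groups overlapped, since LPS libraries 1 and 3 lay above all CON libraries and LPS library 2 lay below all of them. The means were 165 ± 68.6 CPM in CON and 299 ± 232 CPM in LPS (SD, n = 3 each), a log2 difference of 0.85 (SE 0.67, edgeR adjusted p = 0.643). Without LPS library 2 the difference was 1.35 (adjusted p = 0.0804), and without LPS library 3 it was 0.22 (adjusted p = 0.935).

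IL1RAP (ENSSSCG00000021206, chromosome 13, 127933682 to 128072348, plus strand) is the chain that the IL-1 and IL-33 receptors share. It measured 14.7, 8.59 and 14.8 CPM in CON libraries 1 to 3. In the LPS libraries it measured 20.7, 9.98 and 34.5 CPM. As for IL1R1, LPS libraries 1 and 3 were above all CON libraries and library 2 was not. The log2 difference was 0.78 (SE 0.46, edgeR adjusted p = 0.525), which became 1.12 without LPS library 2 and 0.27 without LPS library 3.

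IL1R2 (ENSSSCG00000028331, chromosome 3, 52367437 to 52406334, minus strand), the decoy receptor, had 2, 1 and 4 counts in CON libraries 1 to 3. In LPS libraries 1 to 3 it had 31, 10 and 151 counts. The lowest LPS count, 10 in library 2, has an exact Poisson interval of 4.8 to 18.4, and the highest CON count, 4 in library 3, one of 1.09 to 10.2. Intervals and floors here cover counting error only. In scaled levels the CON libraries lay at 0.179, 0.156 and 0.396 CPM, all close to the level that 3 counts would give (0.268 to 0.469 CPM). The LPS libraries lay at 6.76, 1.64 and 10.3 CPM. The groups did not overlap, and the LPS libraries spread by an SD of 1.39 in log2 CPM, between IL1RAP (0.90) and IL1R1 (1.7). Of all tested genes, 6.52% had every LPS library above every CON library, and IL1R2 passed the filter on low counts only through its LPS libraries, so the separation alone carries little weight.

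For IL1R2 edgeR gave a log2 difference of 4.58 (SE 0.80) with an adjusted p of 0.0847, which is not a call. Across the alternatives that gave a value the difference stayed between 3.97 and 5.13, while the call changed. DESeq2 called it (4.70, adjusted p = 3.52e-05), as did the edgeR fit without a filter (4.55, adjusted p = 3.60e-08). Without LPS library 2 it was called at 5.03 (adjusted p = 0.00151), where 3.76% of genes were called higher and 3.45% lower. Leaving out any other library left it uncalled, with adjusted p values from 0.061 to 0.586, and limma-voom gave 4.25 (adjusted p = 0.193). An exact permutation test of 3 against 3 libraries cannot go below a two-sided p of 0.1.

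**Figure D2:**
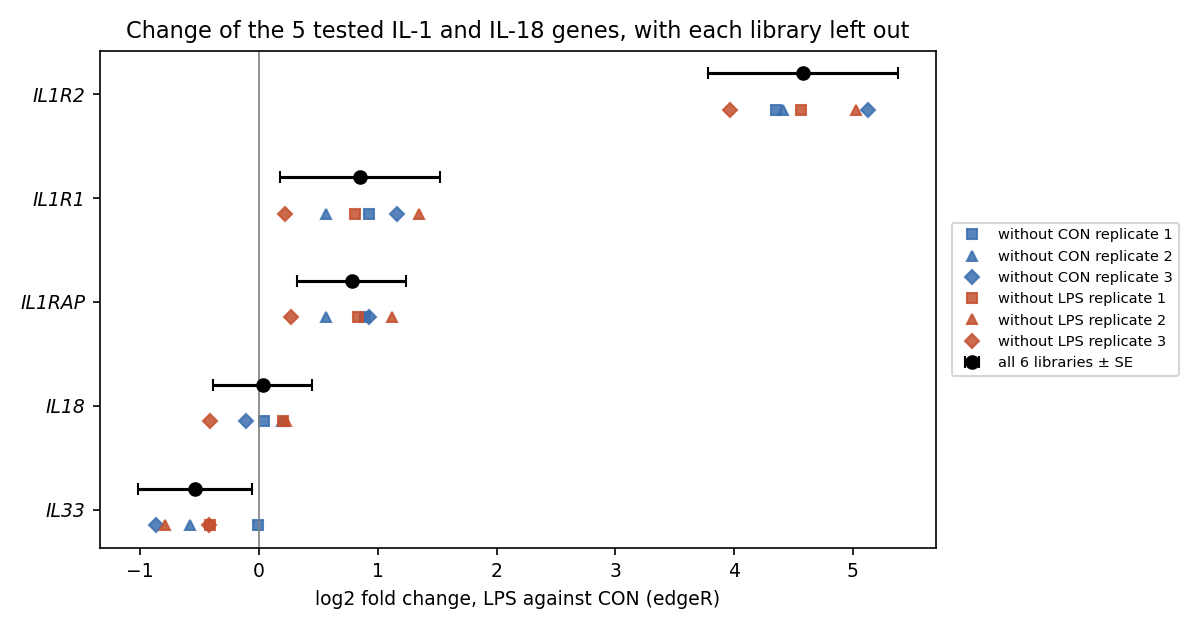
Log2 difference between LPS and CON from edgeR for the 5 tested genes, with all 6 libraries (black points, bars ± SE) and with each library left out in turn (coloured symbols). IL1R2 stays between 3.97 and 5.13, whereas IL18 lies on both sides of 0 and IL1R1 and IL1RAP come nearest to 0 without LPS library 3.

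The balance of decoy to signaling receptor was then taken within each library, where the scaling between libraries cancels. Per kb of transcript, IL1R2 reached 0.278%, 0.501% and 0.509% of IL1R1 in CON libraries 1 to 3. It reached 5.97%, 8.47% and 5.72% in LPS libraries 1 to 3. Exact binomial intervals at 95% reached up to 2.8% in CON and down to 4.03% in LPS. The intervals of the LPS libraries overlapped one another, that of LPS library 2 running from 4.03% to 15.8% on 10 counts, so their order is within counting error. The mean log2 ratio was -7.92 (SD 0.50) in CON and -3.92 (SD 0.31) in LPS, n = 3 each, a difference of 4 on the log2 scale. The CON ratios rest on the 1 to 4 counts given above, and the ratio uses the same IL1R2 counts as the comparison before it, so it is no separate support for that difference.

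IL1R2 against the accessory chain differed likewise. Per kb, it was 0.0414, 0.0621 and 0.0911 times IL1RAP in CON, and 1.11, 0.56 and 1.02 times IL1RAP in LPS. The 2 genes were thus of like level per kb in LPS libraries 1 and 3. The ratio of IL1R1 to IL1RAP showed no such separation, with 14.9, 12.4 and 17.9 in CON against 18.7, 6.61 and 17.9 in LPS. Only LPS library 2 departed from the other 5.

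**Figure D3:**
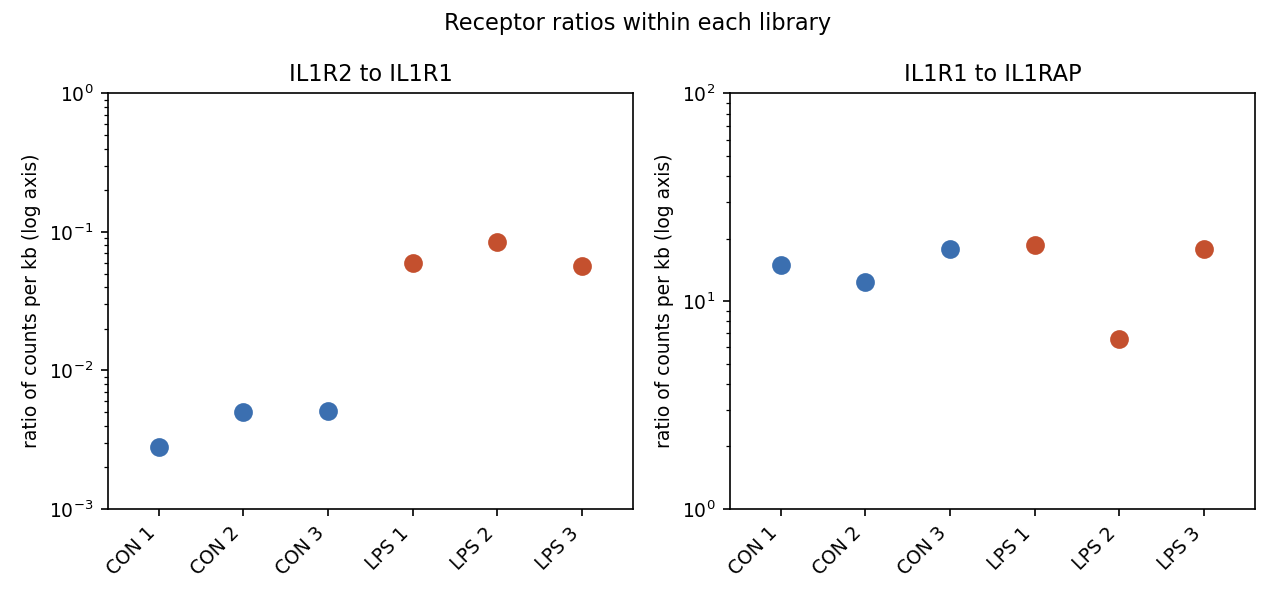
Ratio of counts per kb within each library on log axes, for IL1R2 to IL1R1 (left) and IL1R1 to IL1RAP (right). The decoy ratio of all 3 LPS libraries lies above that of all 3 CON libraries, while the ratio of the 2 signaling chains overlaps between the groups.

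Levels per kb can be ordered across genes. In CON the order was IL1R1 (30.6 ± 12.7 CPM per kb), IL33 (4.15 ± 2.44), IL1RAP (1.97 ± 0.554), IL18 (1.05 ± 0.235), IL1A (0.133 ± 0.188), IL1R2 (0.129 ± 0.0699), IL1RL1 (0.0194 ± 0.0185) and IL18R1 at 0 (SD, n = 3). The ranges over libraries overlapped between IL33 and IL1RAP, between IL1A and IL1R2 and between IL1RL1 and IL18R1. They were apart at the other steps, most narrowly from IL1RAP to IL18. The step from IL1R2 to IL1RL1 is not firm, since both had at most 6 counts per CON library. Of the IL1RL1 exon bases that its counts were divided by, 46.3% are shared with IL18R1 and may not have been counted. The place of IL18R1 at 0 in both orders is likewise not a measured level. In LPS the order was IL1R1 (55.2 ± 42.8 CPM per kb), IL1RAP (3.37 ± 1.9), IL1R2 (3.3 ± 2.31), IL33 (2.85 ± 0.819), IL1A (1.1 ± 1.72), IL18 (1.05 ± 0.469), IL1RL1 (0.0141 ± 0.0243) and IL18R1 at 0. IL1R2 stood beside IL1RAP and IL33 there, with overlapping ranges of 0.866 to 5.46, 1.55 to 5.34 and 2.3 to 3.79 CPM per kb.

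The specific receptors of the IL-18 and IL-33 arms had almost no counted reads. IL1RL1 (ENSSSCG00000032795, chromosome 3, 51803165 to 51951383, minus strand), the IL-33 receptor, had 6, 2 and 0 counts in CON libraries 1 to 3 and 0, 0 and 9 counts in LPS libraries 1 to 3. IL18R1 (ENSSSCG00000008159, chromosome 3, 51803404 to 51902079, minus strand) had 0 counts in all 6 libraries. For IL1RL1, a count of 0 allows up to 3 counts, or 0.297 CPM in CON library 3 and 0.654 and 0.491 CPM in LPS libraries 1 and 2. This limit covers counting error only, not reads lost in the exon bases shared with IL18R1. No difference was detectable in these counts.

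No such limit is given for IL18R1, whose counts of 0 cannot be read as an absent transcript. Of its 6846 exon bases in the deposited gene models, 6746 (98.5%) also lie in exons of IL1RL1 on the same strand, and they make up 46.3% of the 14575 exon bases of IL1RL1. The sources used here do not say how reads in shared exons were counted. In the whole table, 264 genes shared at least 95% of their exon bases with same-strand exons of other genes, and 219 of them (83%) were at 0 in all 6 libraries, against 28.8% of the 25289 genes with no shared base. The other 6 measured genes of the set shared no exon base with another gene. If reads in shared exons were left out, those under IL1RL1 come only from its unshared exon bases. If such reads were kept, those under IL1RL1 may belong to either gene. The counts under IL1RL1, below 10 per library, therefore bound neither transcript as a whole.

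Of the 5 receptor genes, 4 lie in a cluster on chromosome 3, which together with IL18RAP spans 644.2 kb. IL1R1 ends 78.9 kb before IL1R2 starts, so the abundant signaling receptor and the scarce decoy are neighbours. IL1RL2, the receptor of the IL-36 cytokines, lies between IL1RL1 and IL1R1 and had no read in any library. IL18RAP, the accessory chain of the IL-18 receptor, had 2 to 19 counts in CON and 2 to 32 in LPS, with a log2 difference of 0.72 (SE 0.78, edgeR adjusted p = 0.746). On the far side of IL1R2 lies MAP4K4, a stress-activated kinase, at 131, 207 and 124 CPM in CON and 226, 228 and 405 CPM in LPS. Its log2 difference was 0.90 (SE 0.37, edgeR adjusted p = 0.365), and it was named for its position.

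**Figure D4:**
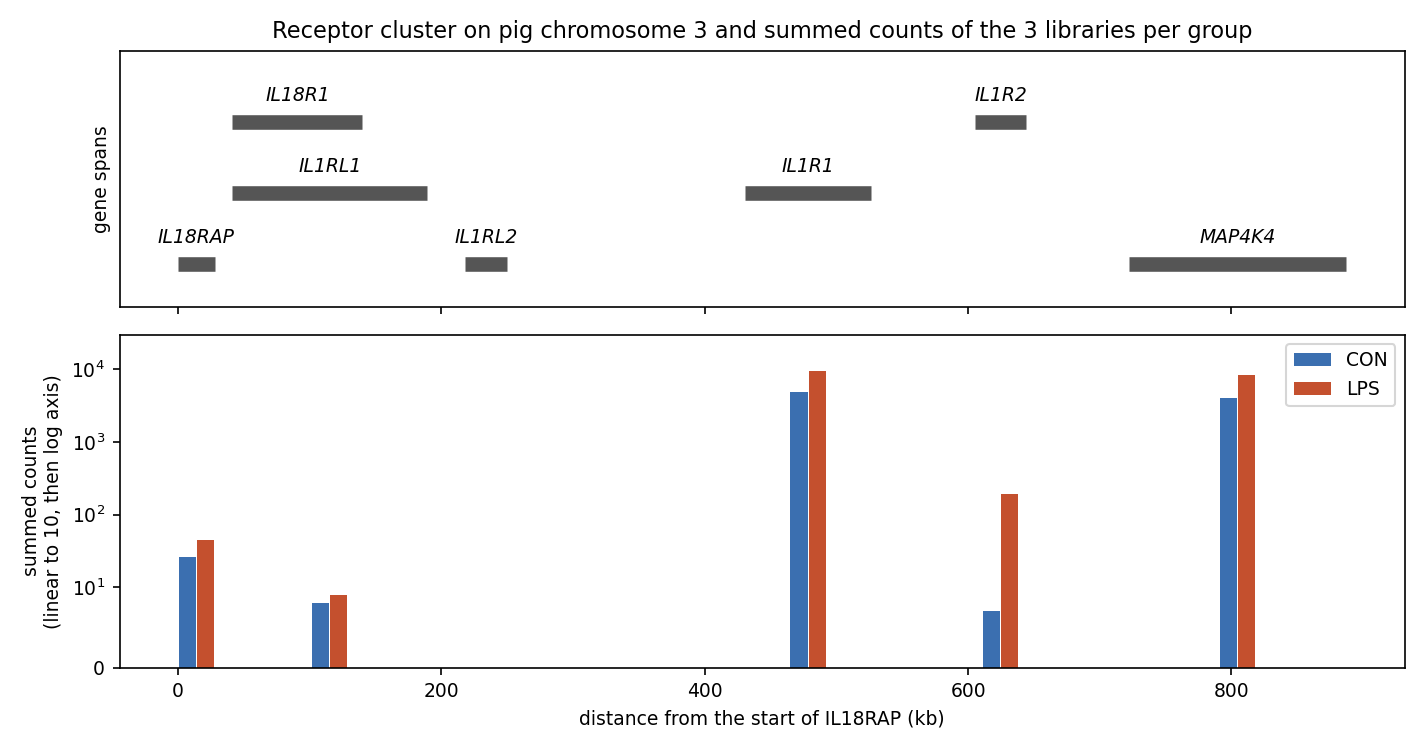
Spans of the receptor genes on chromosome 3 by distance from the start of IL18RAP (top), and their counts summed over the 3 libraries of each group (bottom, linear to 10 and logarithmic above). Summed counts are not corrected for depth, which was greater in LPS, and no bar is drawn for IL18R1 and IL1RL2, which had 0 counts.

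The other genes of the pathway were grouped by role. Of 15 genes that process the ligands or shed the receptors, 10 were in the table and tested, with 2 higher and 8 lower in LPS, a median log2 difference of -0.34 (0.01 over all tested genes) and no call by edgeR. CASP1, the protease that activates IL-18 and IL-1 beta, was the only one at an unadjusted p below 0.05. It measured 11.2, 5.78 and 11.6 CPM in CON, and 0.872, 4.25 and 1.57 CPM in LPS. Every LPS library lay below every CON library, as in 9.8% of tested genes. The log2 difference was -2.09 (SE 0.57, edgeR adjusted p = 0.218). DESeq2 called it lower (-2.06, adjusted p = 0.0281, against 0.976% of its genes), as did edgeR without LPS library 2 (-2.86, adjusted p = 0.0131). ADAM10, which sheds membrane proteins, CAPN1, a calpain, and ERAP1, which binds IL1R2, differed by -0.37 (SE 0.33), -0.43 (SE 0.46) and -0.40 (SE 0.54).

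Of 19 listed genes of the signaling complex below the receptors, 17 were tested, with 10 higher and 7 lower, a median log2 difference of 0.28 and no call. IRAK1, the kinase recruited by MYD88, was higher in each LPS library, at 142, 73.5 and 78.9 CPM against 36.0, 50.9 and 62.4 CPM in CON. Its log2 difference was 0.98 (SE 0.37, edgeR adjusted p = 0.33). It was the only one of the 17 at an unadjusted p below 0.05, against 6.18% of all tested genes higher and 6.33% lower. It was also the only one with every LPS library above every CON library, against 6.52%. Both counts are near the share over all genes. IRAK2, TAB2 and IKBKB, further steps towards NF-κB, differed by 0.97 (SE 0.57), 0.70 (SE 0.39) and 0.86 (SE 0.54). LPS library 3 carried the values of IRAK2 and IKBKB, which were -0.05 and -0.06 without it. TAB2 kept a difference of 0.38 without that library. MYD88 itself differed by 0.28 (SE 0.32). The other receptors and ligands of the IL-1 family added little: of 12 listed, 5 had data and 2 were tested, namely IL18RAP and the inhibitory receptor SIGIRR (-0.39, SE 0.40).

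Of 16 listed genes that IL-1 is known to induce, 13 were tested, 12 of them higher and 1 lower in LPS, with a median log2 difference of 1.48, 4 at an unadjusted p below 0.05 and 1 call. LCN2, which encodes the siderophore-binding acute phase protein lipocalin 2, rose from 2.95, 5.00 and 4.94 CPM in CON to 114, 29.4 and 129 CPM in LPS, a log2 difference of 4.41 (SE 0.58, edgeR adjusted p = 0.0379). That call was lost in limma-voom (adjusted p = 0.069), with at least 10 counts in every library (0.0578) and on leaving out any 1 CON library or LPS library 1 (0.155 to 0.543). LPS itself and other cytokines induce these genes too, and their part in the result was not tested.

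The chemokine genes of that list differed widely between the LPS libraries. CXCL2, a neutrophil attractant, measured 3.40, 2.19 and 4.94 CPM in CON and 56.0, 1.47 and 136 CPM in LPS, so LPS library 2 lay below every CON library. CCL2, a monocyte attractant, measured 17.7, 5.24 and 217 CPM in LPS, with 7.12 to 12.6 CPM in CON. Their log2 differences were 4.19 (SE 1.16, edgeR adjusted p = 0.22) and 2.99 (SE 1.11, adjusted p = 0.33), and that of CCL2 was 0.18 without LPS library 3. CSF3, the neutrophil growth factor, differed by 1.75 (SE 0.73, adjusted p = 0.371) and by 0.60 without LPS library 3. Without LPS library 2, 5 of the 13 tested genes of the list were called higher, against 3.76% of all genes. Without the filter on low counts 11 of 15 were, against 2.28%, in a fit that called 885 genes and gave CCL2 an SE of 0.42. CXCL8 and IL6 were tested there only because the filter was off. Of the genes called there, CCL2, ICAM1, VCAM1 and CXCL8 were far higher in LPS library 3 than in the other LPS libraries. LCN2 and ZC3H12A were about as high in LPS library 1.

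Of 8 listed genes that IL-18 induces, chiefly through interferon gamma, 6 were tested, 3 higher and 3 lower, with a median of 0.00 and no call with all 6 libraries. CXCL10 and CXCL9, chemokines for T cells, were at an unadjusted p below 0.05, with log2 differences of 2.57 (SE 0.95, edgeR adjusted p = 0.326) and 1.9 (SE 0.78, adjusted p = 0.367). Without LPS library 2 edgeR called both higher, CXCL10 at 3.12 (adjusted p = 0.0151) and CXCL9 at 2.42 (adjusted p = 0.00957), 2 of 7 tested against 3.76% of all genes. Without LPS library 3 the differences were 0.70 and 1.09, and neither was called. FASLG and TBX21, which belong to cytotoxic and type 1 T cells, differed by -0.42 (SE 0.53) and -0.26 (SE 0.44). IFNG itself had too few counts to test.

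**Figure D5:**
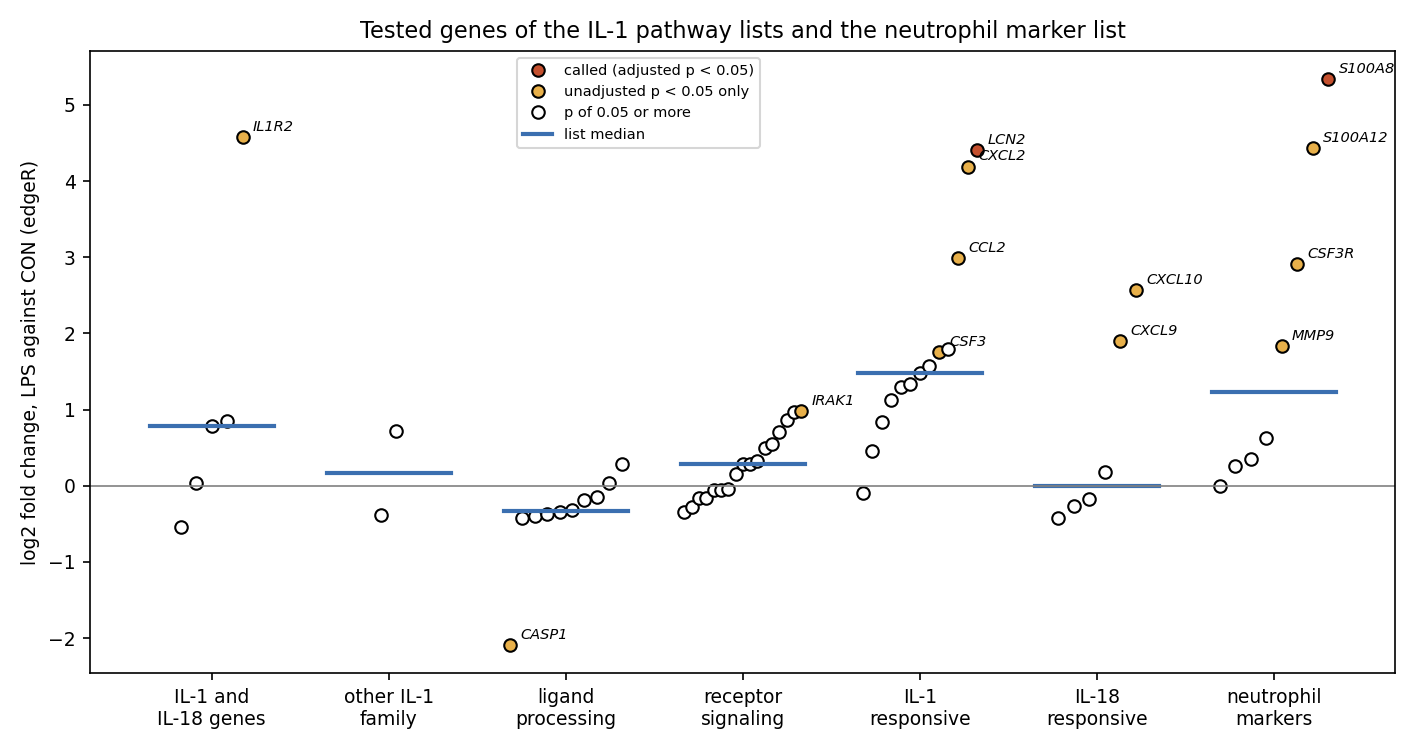
Log2 difference between LPS and CON for every tested gene, by list, with the list median as a bar and the genes at an unadjusted p below 0.05 named. IL1R2 stands at 4.58 above the other 4 tested genes of its set, and LCN2 and S100A8 are the called genes shown.

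Markers of neutrophils, a main source of IL1R2, moved with it. Of 13 listed, 9 were in the table and 8 tested, with 7 higher and 1 lower and a median log2 difference of 1.23. In 4 of the 8, every LPS library was above every CON library, against 6.52% of all tested genes. The summed level of the 9 markers was 59.5 to 105 CPM in CON and 162 to 386 CPM in LPS. In both IL1R2 and the sum, LPS library 2 was lowest of the LPS libraries and library 3 highest. S100A8, a calcium-binding protein abundant in neutrophils, rose by 5.34 on the log2 scale (SE 0.69, edgeR adjusted p = 0.0371), a call lost in limma-voom (adjusted p = 0.123) and on leaving out any 1 CON library or LPS library 1 (0.132 to 0.543). MMP8, a neutrophil collagenase, was at 0 in all CON libraries and at 3.92, 0.818 and 18.5 CPM in LPS. Without LPS library 2, which stood nearest to CON, 5 of 9 tested neutrophil markers were called higher, against 3.76% of all genes. These were CSF3R, MMP8, MMP9, S100A12 and S100A8. MMP8 and S100A8, at 0 and at most 0.396 CPM in CON, passed the filter on low counts only through their LPS libraries. Their calls therefore carry little weight. The part of these cells in the IL1R2 difference was not tested.

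The markers of other cells in the liver had medians from -0.48 to 0.63. Of the 11 Kupffer cell or macrophage markers tested, all 11 were lower, 3 of them at an unadjusted p below 0.05 and none called, with a median of -0.48 and sums of 2011 to 3261 CPM in CON and 1376 to 2316 CPM in LPS. Endothelial markers, from cells that hold IL-33, had a median of -0.46 over 8 tested genes, 2 higher and 6 lower. Their sums were 263 to 579 CPM in CON and 217 to 368 CPM in LPS. At an unadjusted p below 0.05, LYVE1 (1.16) was higher, and KDR (-0.89) and TEK (-1.50) were lower. Of all tested genes, 6.18% were higher and 6.33% lower at that threshold. T or NK cell markers had a median of -0.20 over 9 genes with sums of 233 to 314 CPM in CON and 238 to 1178 CPM in LPS (132 to 161 and 61.7 to 147 CPM without the chemokine CCL5, which alone measured 1032 CPM in LPS library 3), B or plasma cell markers -0.48 over 6, and mast cell or basophil markers 0.63 over 3. Stellate cell or cholangiocyte markers, which pool different cells, had a median of -0.12 over 10 genes, 5 higher and 5 lower. At an unadjusted p below 0.05, ACTA2 (2.09), KRT7 (1.61) and EPCAM (1.42) were higher and none lower, against the same shares. KRT7 and EPCAM were higher in every LPS library than in any CON library, as in 6.52% of tested genes, while ACTA2 overlapped. Hepatocyte markers had a median of -0.08 over 10. Within the hepatocyte list CYP7A1, the rate-limiting enzyme of bile acid synthesis, measured 16.4, 21.2 and 16 CPM in CON and 0.436, 2.29 and 0.273 CPM in LPS. Its log2 difference was -4.25 (SE 0.68, edgeR adjusted p = 0.0668). Every LPS library lay below every CON library in 3 of the 10 hepatocyte markers, against 9.8% of all tested genes.

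With all 6 libraries edgeR called no gene of these other cell lists. Without LPS library 2 it called MRC1 of the Kupffer cell list (-1.75) and CD4 of the T or NK cell list (-1.63) lower. KDR (-1.42) and TEK (-2.40) of the endothelial list and CYP7A1 (-5.73) were also called lower, against 3.45% of all genes. CCL5 (2.34) was called higher, against 3.76%. Without LPS library 3, where 58 genes were called in all, CYP7A1 was called lower (-3.60). DESeq2 called CYP7A1 lower (-4.21), against 0.976% of the genes it tested. It called KRT7, a cholangiocyte keratin, higher (1.65), against 1.89%.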

How the data were processed

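Read counts for 31908 pig Ensembl genes, with gene models and lengths, were deposited by the authors as 1 table of whole numbers without normalization. The submitters' processing notes name cutadapt 1.9.3 and HISAT2, and the builds galGal6 and hg38, neither of which is a pig genome. The pig build, the counting program and its strand setting are not given in the sources at hand, and coordinates are those of the deposited table. CON replicates 1 and 2 have more than 1 sequencing entry in the labels and 1 column each. Columns were matched by the group and replicate in their names, and the number left unmapped was 0. The m6A-IP libraries were not analysed here.

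Counts were fitted in R 4.3.3 with edgeR 4.0.16 (filterByExpr with a minimum count of 10, TMM, robust glmQLFit, glmQLFTest), with p-values adjusted over all 12774 tested genes by Benjamini-Hochberg. CPM values are TMM-scaled. DESeq2 1.42.0, limma-voom (limma 3.58.1), other scalings and filters, a replicate block and each library left out were alternatives. The scripts were tested on simulated data. Ratios between receptors used counts per kb of the deposited length. Named are all the chosen genes in the table, the called genes of each pathway list or otherwise up to 4 with the smallest p, and LCN2 and S100A8. MYD88, IFNG, MAP4K4, IL1RL2 and the markers other than S100A8 were named after their values were seen. The genes and lists were chosen with earlier results of these data known.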

Additional observations from a re-analysis of the deposited data

How the results depend on the processing

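The number of genes called over the whole table depended strongly on the processing, from 7 to 417 with DESeq2, 885 without a filter on low counts, 0 with at least 10 counts in every library, 12 with total-count scaling, and 0 to 982 with 1 library left out, the highest without LPS replicate 2 (58 without LPS replicate 3). Of the IL-1 and IL-18 genes, 0 were called by edgeR (1 at an unadjusted p below 0.05), 1 by DESeq2, 2 without the filter and 0 to 1 with 1 library left out. Of the other pathway genes 1 was called by edgeR, 2 by DESeq2, 14 without the filter, 0 with at least 10 counts in every library, 0 by limma-voom, and 0 to 8 with 1 library left out, the highest without LPS replicate 2. The cause of these shifts was not tested. With the replicate number as a block, 51 genes and 1 of the IL-1 and IL-18 genes (IL1R2, 4.59, adjusted p = 0.0155) were called, but the numbers share only a name: same-numbered deviations correlated at -0.239, 0.219 and 0.029, and 1 pair, number 2, correlated best with its own number. IL18 changed sign with total counts (-0.20), with the replicate block (-0.04) and with 1 library left out (-0.41 to 0.23). Of 64 refits of these genes, 60 kept the direction. Total-count scaling moved the median of all tested genes from 0.01 to -0.12, and IL1R1 then differed by 0.61, IL1RAP by 0.55 and IL33 by -0.67. The filter of at least 10 counts in every library left no value for IL1R2. The ratios planned with IL1RN, IL18BP, IL18R1 and IL1RL1 were not run for lack of counts or of a symbol.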

Other observations

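A gene without a symbol, ENSSSCG00000039214 (chromosome 3, 43670109 to 43677125, plus strand), ends 41.2 kb before IL1A and resembled it. It had 0, 5 and 2 counts in CON libraries 1 to 3 and 3, 2 and 322 counts in LPS libraries 1 to 3, so that, as for IL1A, LPS library 3 held nearly all of the reads. It was singled out after its values were seen. The RefSeq gene table lists IL1B as the neighbour of IL1A on that side but does not pair the identifier with it, so the gene is given here by its identifier only.

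CXCL8 and IL6, listed as genes that IL-1 induces and below the filter on low counts, were likewise highest in LPS library 3. CXCL8, a neutrophil attractant, measured 15.3 CPM there and at most 0.327 CPM in the other 5 libraries. IL6 measured 3.41 CPM in that library, 0.436 and 0.654 CPM in LPS libraries 1 and 2, and at most 0.179 CPM in CON. Both were named after their values were seen.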
